A study of Macaca fascicularis with 48 samples.

Results

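The genes described here encode motors that carry cargo along axons, and 9 of them were followed across ganglia, spinal cord and liver. They were the kinesins *KIF1A*, *KIF1B*, *KIF3A*, *KIF5A*, *KIF5B*, *KIF5C* and *KIF21A*, and the cytoplasmic dynein subunits *DYNC1H1* and *DYNC1I1*. They were taken by name: of 10 listed motor genes, 9 matched a row of the deposited table of 16842 gene names, and *DCTN1*, a dynactin subunit, was not analysed here. The list was chosen with earlier results of these data known, so member counts set beside all-gene shares are a description only.

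The libraries came from cynomolgus monkeys (Macaca fascicularis) gavaged for 13 weeks with GS-8873, which per the submitters inhibits the transcripts of hepatitis B virus. Control animals received 0 mg/kg/day and treated animals 6 mg/kg/day, and nothing else in the labels separates the groups. Each of 6 tissues (liver, cervical, thoracic and lumbar spinal cord, cervical and lumbar dorsal root ganglia) had 4 control and 4 treated libraries, with 2 males and 2 females in each group. Dorsal root ganglia lie next to the cord and hold the cell bodies of sensory neurons. The 4 control animals gave every tissue, whereas the treated ganglia came from 6 animals, only some of which also gave treated cord and liver. Ages are not given in the labels used here.

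Kinesins and dynein walk on microtubules in opposite directions. Most kinesins carry vesicles, mitochondria and RNA from the cell body towards the axon tip, and cytoplasmic dynein, working with dynactin, returns cargo and survival signals to the cell body. Sensory neurons of the ganglia have some of the longest axons in the body, and inherited variants in several of these genes, among them *KIF1A*, *KIF5A* and *DYNC1H1*, are known causes of neuropathy or spastic paraplegia.

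Coordinates are those of the deposited table, on the Macaca_fascicularis_5.0 build, and each value sums the reads on all exons of a gene. *KIF21A* spans chromosome 11, 37677688 to 37841094, on the minus strand, and *DYNC1H1* spans chromosome 7, 167191631 to 167287078, on the plus strand. *KIF1A* lies on chromosome 12, 130646663 to 130734206 (minus), and *KIF1B* on chromosome 1, 217791685 to 217961094 (minus). *KIF3A* lies on chromosome 6, 131663962 to 131727698 (minus), where its span overlaps that of *IL4* on the other strand, so reads of that overlap cannot be told apart by strand in these unstranded counts. *KIF5A* lies on chromosome 11, 56532159 to 56570448 (plus), *KIF5B* on chromosome 9, 32597570 to 32645542 (minus), and *KIF5C* on chromosome 12, 37481112 to 37686461 (plus). *DYNC1I1* lies on chromosome 3, 115869580 to 116170913 (minus).

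Library totals lay between 35453786 and 53480762 counts (each mate of a read pair is 1 count), and the 9 members together received 63884 to 373298 counts in a ganglion library, 31339 to 228810 in a cord library and 11744 to 16632 in a liver library. Defining markers were high in the tissue each label names (*AVIL* in ganglia, *MOG* in most cord libraries, *ALB* in liver), with exceptions in cord. Lumbar cord control 1 and treated 1 held almost no *MOG*, the oligodendrocyte gene (0.258 and 0.0870 CPM, counts scaled to a common library size), against 330.0 to 656.6 CPM in the other lumbar cord libraries. Cervical cord control 1 held 16.6 CPM of the neuronal gene *SNAP25*, against 757.8 to 2191 CPM in the other cervical cord libraries. Mitochondrial transcripts took 6.86% to 37.3% of counts, above 30% in 3 thoracic cord libraries (control 4, treated 1 and treated 4) and 23.01% in cervical ganglion treated 4, against 6.97% to 13.4% in the other cervical ganglia. These are the 7 libraries that stand apart in what follows.

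In control animals the levels of the motors differed across tissues. Levels between genes are compared per length, as RPKM, which is counts scaled by library size and by kilobases of gene model. *KIF5A*, the neuron-restricted heavy chain of conventional kinesin, was the highest member in both ganglia, at 207 ± 59.6 RPKM in cervical and 244 ± 41.2 RPKM in lumbar ganglia (SD, n = 4). It stood at 71.0 ± 39.6, 44.9 ± 10.2 and 98.3 ± 68.2 RPKM in cervical, thoracic and lumbar cord, and at 0.0440 ± 0.0591 RPKM in liver. Without the control that stands apart in each cord region the means were 89.3 ± 18.4 RPKM in cervical and 46.7 ± 11.7 RPKM in thoracic cord (n = 3), and the 3 other lumbar controls ran from 95.3 to 153 RPKM. *KIF5C*, the other neuronal heavy chain, followed in ganglia with 128 ± 18.5 and 135 ± 25.4 RPKM, and *KIF21A*, a kinesin that restrains microtubule growth, came next with 96.3 ± 23.9 and 114 ± 21.6 RPKM. *KIF5B*, the heavy chain used by most cell types, was the highest member in liver, at 29.6 ± 4.71 RPKM. In cervical cord it stood at 87.6 ± 2.98 RPKM and *KIF5C* at 85.7 ± 34.7 RPKM. Without control 1 *KIF5C* (99.7 ± 25.2) and *KIF5A* had the higher means there and *KIF5B* stood at 86.1 ± 1.02 RPKM (n = 3).

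The dynein heavy chain *DYNC1H1*, which holds the motor domain, stood at 82.9 ± 15.2 RPKM in cervical and 99.3 ± 14.4 RPKM in lumbar ganglia, with 27.8 to 45.7 RPKM on average in the cord regions and 14.4 ± 1.89 RPKM in liver. *DYNC1I1*, the neuronal intermediate chain that links the motor to dynactin, reached 63.9 ± 20.6 and 73.5 ± 13.6 RPKM in the ganglia and 20.2 to 29.8 RPKM on average in cord. *KIF1A*, which moves synaptic vesicle precursors and dense-core vesicles, averaged 71.3 ± 23.8 and 82.5 ± 8.60 RPKM in ganglia and 33.04 to 51.7 RPKM in cord. Without the control that stands apart in each cord region (n = 3), cord means of *DYNC1H1* ran from 31.8 to 50.5 RPKM. Those of *DYNC1I1* then ran from 23.7 to 39.3 RPKM and those of *KIF1A* from 41.9 to 58.7 RPKM. *KIF3A*, a motor subunit of heterotrimeric kinesin, averaged 31.98 ± 6.82 and 41.1 ± 14.4 RPKM in ganglia. *KIF1B*, which moves mitochondria or synaptic vesicle precursors depending on its isoform, was the lowest member there, at 10.03 ± 1.09 and 12.7 ± 4.98 RPKM, and was higher in cord, at 37.2 ± 4.94 RPKM in the cervical region. Isoforms are not separated in these gene counts.

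**Figure D1:**
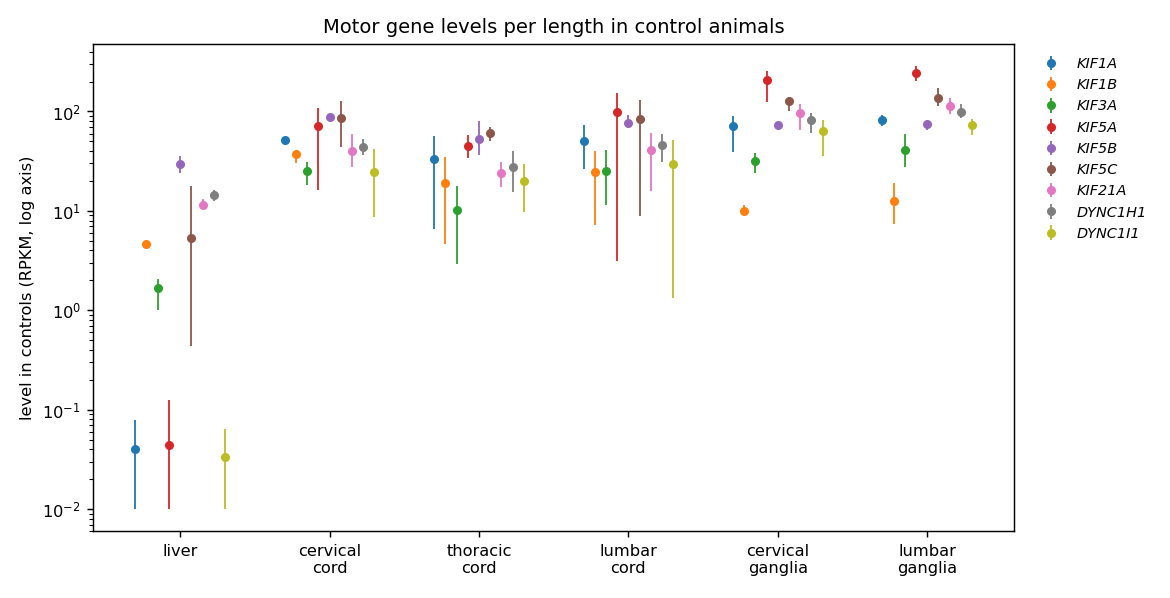
Level of each motor gene in control animals, in RPKM on a log axis, by tissue. Points are means of 4 libraries and bars run from the lowest to the highest library, with values under 0.01 drawn at 0.01. *KIF5A* leads in both ganglia, while *KIF1A*, *KIF5A* and *DYNC1I1* are near the bottom of the axis in liver.

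A fit over all 48 libraries with animal as a random block (limma) compared control levels between tissues. Of all genes tested, 30.5% were higher and 32.3% lower in control ganglia than in control cord, and of the 9 members 7 were higher and *KIF1B* was lower (log2 difference -1.03 ± 0.32 SE, adjusted p = 0.00523). The call of *KIF1B* was lost without control animal 3 (-0.65 ± 0.35, limma adjusted p = 0.119). *KIF5A* differed by 2.16 ± 0.49 on the log2 scale (limma, adjusted p = 0.000258), and *KIF21A* by 1.71 ± 0.18 (adjusted p = 2.35e-10). Their order was not stable: without control animal 1 they gave 1.43 ± 0.41 and 1.48 ± 0.16, and without the 7 libraries 1.47 ± 0.18 and 1.49 ± 0.13, and both were still called. *KIF5C* was higher by 1.03 ± 0.41 (adjusted p = 0.0283). That call was lost in 4 of 17 alternatives, with limma adjusted p up to 0.204. Among them was the fit without the 7 libraries that stand apart (0.63 ± 0.32, adjusted p = 0.0843). The level of *KIF5B* did not differ past the threshold (0.10 ± 0.15, limma 95% interval -0.20 to 0.39, adjusted p = 0.576). Against liver, where 37.7% of all genes were lower than in ganglia, all 9 members were higher in ganglia, by 1.32 ± 0.49 for *KIF1B* at the least (adjusted p = 0.0157), which was not called without control animal 2 (1.26 ± 0.62, limma adjusted p = 0.0728). In liver, *KIF1A* received 0 to 12 counts, *KIF5A* 0 to 18 and *DYNC1I1* 0 to 4 per library, so no fold is given for them.

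Ordering the tissues of each member by mean control RPKM gives 45 steps between neighbours, of which 16 passed an adjusted p of 0.05 in limma (background 16.5% of such steps over all genes). Lumbar ganglia stood above cervical ganglia for 9 of 9 members, and the difference passed for none of them (log2 differences -0.00 to 0.31 in the fit). The step from cervical ganglia down to the highest cord region passed for *KIF5A*, *KIF21A*, *DYNC1H1* and *DYNC1I1*, and did not for *KIF1A*, *KIF3A* and *KIF5C*. The last step, down to liver, passed for every member except *KIF1B*, whose step from cervical ganglia to liver gave 1.19 ± 0.55 (limma, adjusted p = 0.0523).

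In the ganglia, 2 motors were lower in treated animals: *KIF21A* and the dynein heavy chain *DYNC1H1*. The other 7 members had negative fold changes that did not pass the test, with estimates from -0.27 for *KIF5B* to -1.33 for *KIF1A*. The 2 called members compare with 139 of 14535 genes called lower (0.956%) and 0.0206% called higher, 0.977% in all, in the same fit. This was a limma voom fit of the 16 ganglion libraries that adjusts for sex and region and takes the animal as a random effect. The median log2 fold change was -0.80 over the 9 members and 0.05 over all genes tested, of which 43.3% were negative. Since these are bulk samples, fewer neurons and less of a transcript per neuron cannot be told apart. Levels in this comparison are CPM after TMM scaling.

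*KIF21A* stood at 564, 737, 890 and 959 CPM in control cervical ganglia and at 774, 817, 1008 and 1114 CPM in control lumbar ganglia. In treated animals it stood at 251, 485, 488 and 491 CPM in cervical and at 438, 480, 491 and 520 CPM in lumbar ganglia. Every treated library lay below every control library, and 7 of the 8 treated libraries sat close together, with cervical treated 4 far below them. The mean fell from 858 ± 173 to 455 ± 85.7 CPM (SD, n = 8 libraries each), a log2 change of -0.96 ± 0.17 (limma 95% interval -1.32 to -0.59, adjusted p = 0.0192). Over all genes, 1.24% of those tested were without overlap and lower in treated ganglia.

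*DYNC1H1* stood at 1106, 1445, 1537 and 1612 CPM in control cervical and at 1501, 1595, 1725 and 1949 CPM in control lumbar ganglia. Treated cervical ganglia held 782, 861, 946 and 1111 CPM and treated lumbar ganglia 886, 1125, 1164 and 1253 CPM. The groups overlapped only through cervical control 4, the lowest control, which 4 of 8 treated libraries fell below. The mean fell from 1559 ± 241 to 1016 ± 169 CPM, a log2 change of -0.65 ± 0.13 (limma 95% interval -0.93 to -0.37, adjusted p = 0.0327). *DYNC1H1* is the subunit without which cytoplasmic dynein has no motor.

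*KIF1A* had the most negative estimate and also a wide error. Control cervical ganglia held 288, 468, 600 and 623 CPM, and control lumbar ganglia 477, 574, 602 and 638 CPM. Treated cervical ganglia held 64.8, 182, 273 and 337 CPM, and treated lumbar ganglia 180, 186, 286 and 401 CPM. Cervical control 4 was the lowest control, and 6 of 8 treated libraries lay below it. The log2 change was -1.33 ± 0.44 (limma, unadjusted p = 0.00800, adjusted p = 0.197). In the limma fit over all 48 libraries the ganglia together gave -1.34 ± 0.38 (adjusted p = 0.0380), so that *KIF1A* was called beside *KIF21A* and *DYNC1H1*. How many genes that fit called over the table for the ganglia together is not given here, so these calls have no background beside them.

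Among the conventional kinesin heavy chains, *KIF5A* ranged from 978 to 2043 CPM in control ganglia (median 1729) and from 546 to 1332 CPM in treated ganglia (median 1112). Cervical control 4 again lay within the treated range, and the other 7 controls lay above it. The log2 change of *KIF5A* was -0.81 ± 0.21 (limma, unadjusted p = 0.00149, adjusted p = 0.0865). *KIF5C* ranged from 915 to 1424 CPM in controls (median 1137) and from 338 to 1058 CPM in treated ganglia (median 723), with 7 of 8 treated libraries below every control. Its log2 change was -0.80 ± 0.22 (limma, unadjusted p = 0.00222, adjusted p = 0.104). The broadly expressed *KIF5B* had the estimate nearest to 0, at 496 to 609 CPM in controls and 279 to 554 CPM in treated ganglia, with a log2 change of -0.27 ± 0.14 (limma, adjusted p = 0.512).

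*DYNC1I1* ranged from 109 to 244 CPM in control ganglia (median 205) and from 70.3 to 161 CPM in treated ganglia (median 115). The log2 change of this dynein chain was -0.82 ± 0.24 (limma, unadjusted p = 0.00347, adjusted p = 0.128), and 3 of 8 treated libraries lay below all controls. *KIF3A* and *KIF1B* overlapped widely. *KIF3A* ran from 77.2 to 173 CPM in controls and from 10.6 to 113 CPM in treated ganglia (log2 change -0.73 ± 0.38, limma adjusted p = 0.501). *KIF1B* ran from 64.8 to 158 CPM and from 17.4 to 104 CPM (log2 change -0.45 ± 0.38, limma adjusted p = 0.698), and its medians were 90.4 CPM in controls and 91.1 CPM in treated ganglia. Both owed their lowest value to cervical treated 4. At an unadjusted p under 0.05, 6 of 9 members were lower, against 8.04% of all genes tested.

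**Figure D2:**
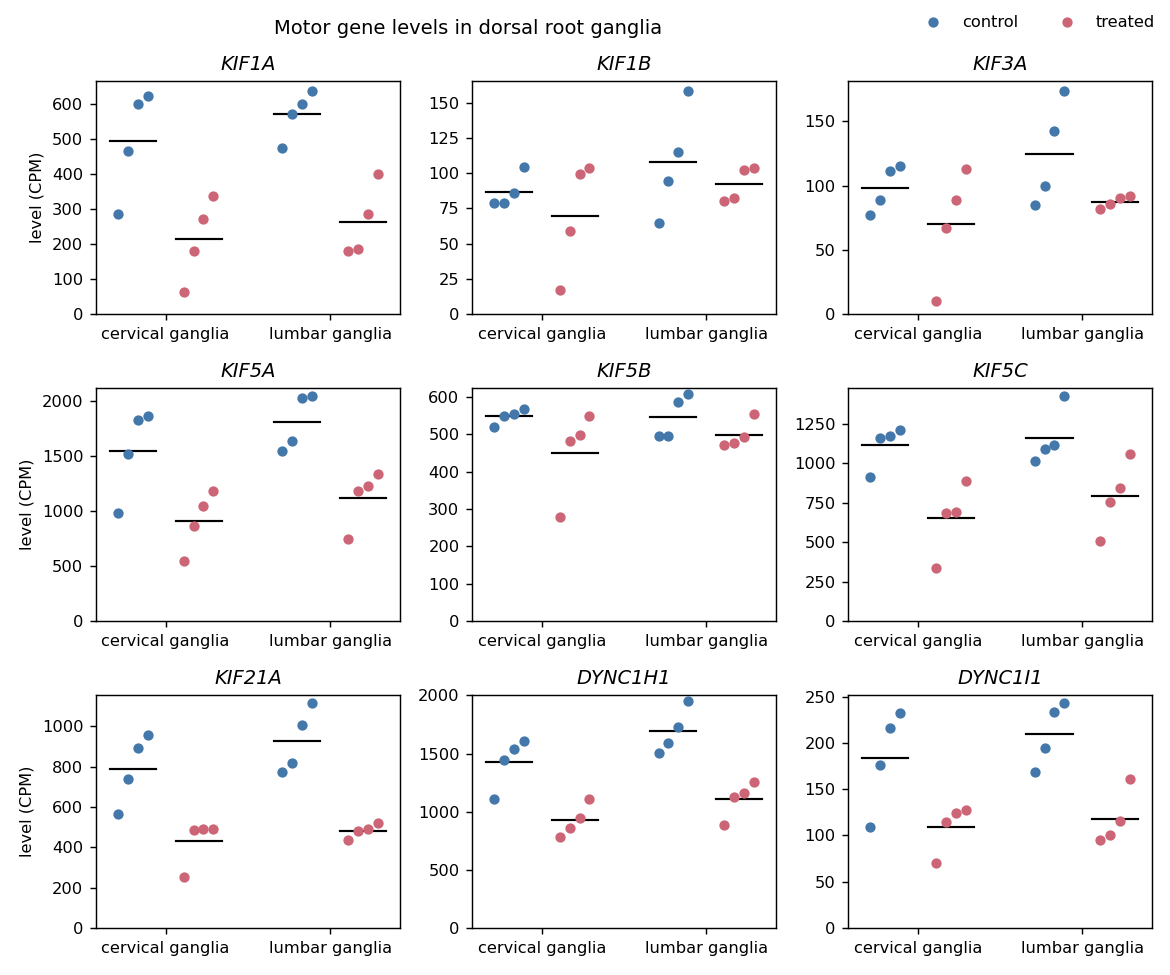
Level of each motor gene in every ganglion library, in TMM-scaled CPM on linear axes that start at 0; points are libraries, 4 per group and region, and horizontal lines are group means. The treated points of *KIF21A* all lie below the control points, those of *DYNC1H1* and *KIF5A* reach cervical control 4, and those of *KIF1B*, *KIF3A* and *KIF5B* mix with the controls apart from cervical treated 4.

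The cervical library treated 4, with 23.01% mitochondrial counts, held the lowest level of all 9 members among the 16 ganglion libraries. Without the animal that gave it, 5 members passed in place of 2: *KIF21A* (-0.84, limma adjusted p = 0.00208), *DYNC1H1* (-0.62, 0.00618), *KIF5A* (-0.69, 0.0302), *KIF5C* (-0.62, 0.0284) and *DYNC1I1* (-0.73, 0.0425), with 967 genes called over the table. *KIF1A* then gave -1.04 (limma, adjusted p = 0.0518), and *KIF1B* moved to -0.15 and *KIF3A* to -0.37. The calls also depended on the controls and on how the animal was modelled: no member passed without control animal 1, 2 or 3 (*KIF21A* -0.92, -0.97 and -0.95, adjusted p = 0.246, 0.243 and 0.165), and 1 passed without treated cervical animal 1 (*KIF21A*, -0.99, adjusted p = 0.0468). With counts summed per animal in edgeR no member passed (*KIF21A* -0.92, adjusted p = 0.108), and in DESeq2 on the same sums 3 did (*KIF21A*, *DYNC1H1* and *DYNC1I1*, adjusted p = 0.00122, 0.00554 and 0.0186). How many genes that DESeq2 fit called over the table is not given here.

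Taken alone, the lumbar ganglia showed *KIF21A* and *KIF1A* lower in treated animals. In this edgeR quasi-likelihood fit, 4.29% of 14267 genes passed, 3.65% as lower and 0.638% as higher, and these 2 of 9 members were lower. *KIF21A* changed by -0.93 ± 0.14 (edgeR, adjusted p = 0.0172) and *KIF1A* by -1.19 ± 0.21 (edgeR, adjusted p = 0.0249). *KIF1A* stood at 483, 581, 610 and 647 CPM in controls and 183, 188, 290 and 406.4 CPM in treated animals, without overlap. *DYNC1I1* (-0.84 ± 0.20, edgeR adjusted p = 0.0578), *DYNC1H1* (-0.61 ± 0.15, 0.0622) and *KIF5A* (-0.69 ± 0.20, 0.102) also did not overlap between groups, which makes 5 of 9 members against 9.35% of all genes. Without control 1, 2 or 3 neither call held (*KIF21A* adjusted p = 0.0538 to 0.0596, *KIF1A* 0.0659 to 0.0714).

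In the cervical ganglia no member, and no gene at all, passed in edgeR (0% of 14173), while 6 members were lower at an unadjusted p under 0.05, against 5.07% of all genes lower at that p. *KIF5C* and *KIF21A* did not overlap between groups, against 3.28% of all genes. *KIF1A* gave -1.32 ± 0.34 (edgeR, adjusted p = 0.398), *KIF21A* -0.88 ± 0.24 (0.414) and *KIF5C* -0.81 ± 0.27 (0.520). In limma voom 0 members passed, and DESeq2 called 225 genes, 3 of them members that were lower: *DYNC1H1* (adjusted p = 0.0131), *KIF1A* (0.0226) and *KIF21A* (0.0405). The test of the difference between the regions called none of the 9 members and no gene (limma interaction, 0% of 14535; 2.90% at an unadjusted p under 0.05 and 0 members), with interval limits for *KIF21A* of -0.49 to 0.26 on the log2 scale.

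**Figure D3:**
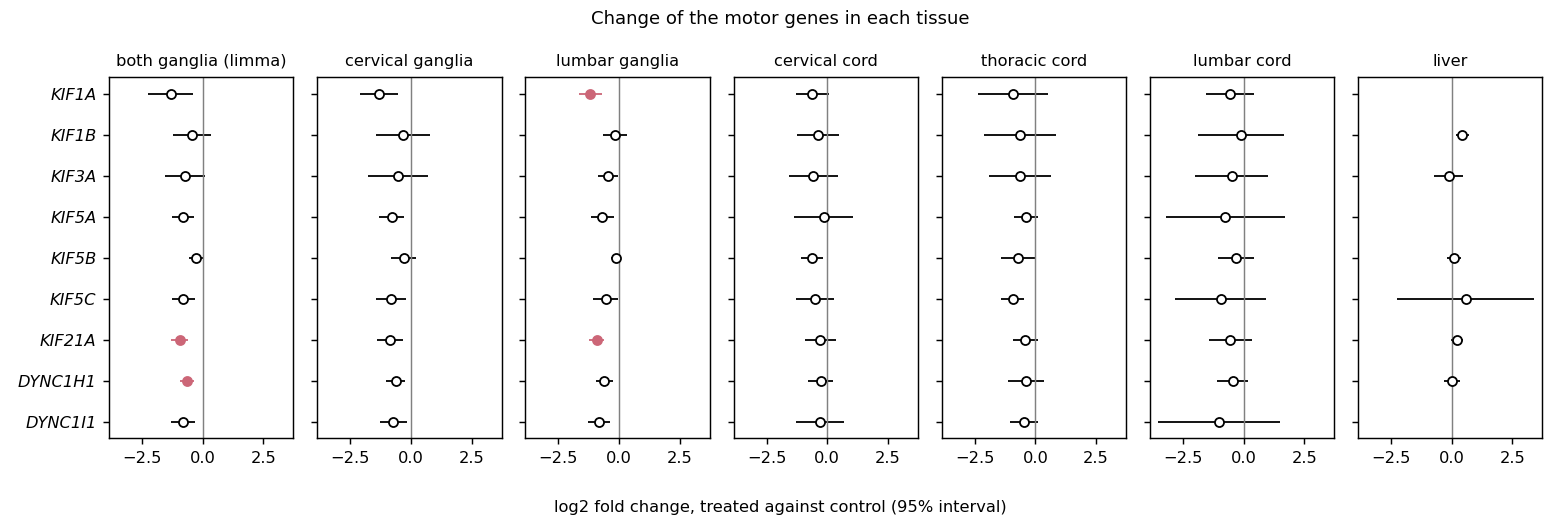
Log2 fold change of each motor gene in treated against control animals with its 95% interval, for both ganglia together (limma) and each tissue alone (edgeR); filled red points passed an adjusted p of 0.05. Red points are *KIF21A* and *DYNC1H1* in both ganglia together and *KIF1A* and *KIF21A* in lumbar ganglia, and no cord or liver point is red.

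Neuronal marker transcripts moved in the same direction as the motors in treated ganglia. The 10 general neuron markers all had negative fold changes in the fit of both ganglia (median -0.52, 0 called). In lumbar ganglia alone 9 of 10 were negative and 2 were called lower, *SNAP25* (-1.21 ± 0.15, edgeR adjusted p = 0.0154) and *UCHL1* (-0.92 ± 0.19, edgeR adjusted p = 0.0378). In the ganglia together their mean log2 CPM per animal differed by -0.55 (exact two-sided permutation test over 4 control and 6 treated animals, p = 0.0190, where the smallest possible p is 0.00476). Their summed level ran from 7064 to 12800 CPM in control and from 5962 to 10000 CPM in treated ganglia. No exact p of a marker score is adjusted for the number of lists and tissues scored. The marker lists were also chosen with earlier results of these data known. The synaptic fusion gene *SNAP25* stood at 1669 to 1926 CPM of total counts in control and 712 to 1009 CPM in treated lumbar ganglia, without overlap, and at 879 to 1898 against 787 to 1071 CPM in cervical ganglia. Of 16 sensory neuron markers, 13 had negative fold changes (median -0.34, 0 called; difference of the mean per animal -0.41, exact permutation p = 0.124), and the range of *AVIL* in treated lumbar ganglia, 816 to 2173 CPM, enclosed that of its controls, 1150 to 1411 CPM. The 5 satellite glia markers all had positive fold changes (median 0.24, 0 called; difference 0.23, exact permutation p = 0.105). Scaled by total counts in place of TMM, the satellite glia difference was 0.36 (exact permutation p = 0.00952). In that scaling the general neuron difference was -0.43 (exact permutation p = 0.0476) and the sensory neuron difference -0.29 (exact permutation p = 0.371). The 6 Schwann cell markers differed by -0.03 on average. The part of neuronal content in the motor values was not tested.

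**Figure D4:**
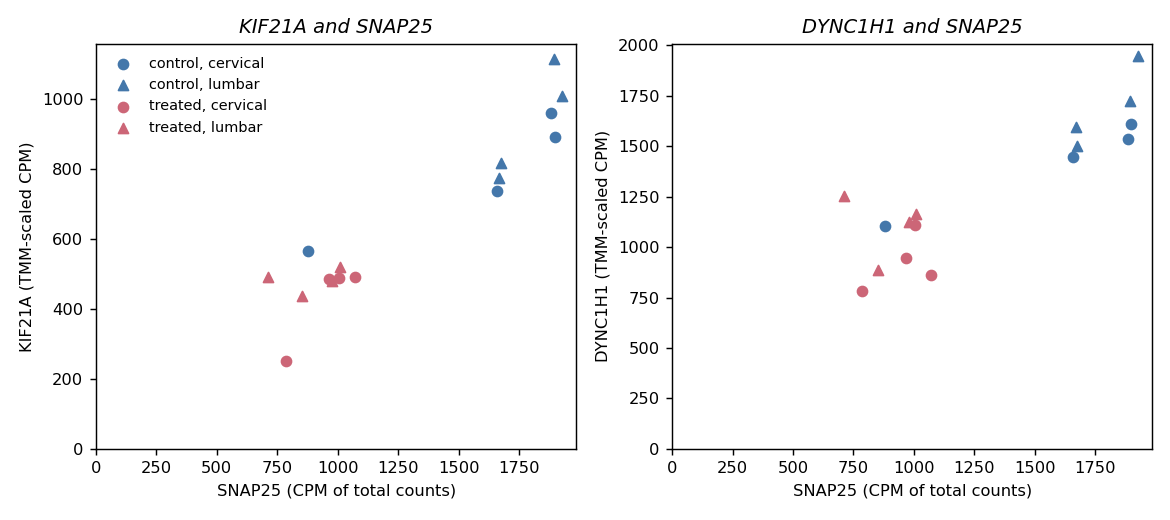
*KIF21A* (left) and *DYNC1H1* (right) in TMM-scaled CPM against *SNAP25* in CPM of total counts for the 16 ganglion libraries, with circles for cervical, triangles for lumbar, blue for control and red for treated. Cervical control 4, the control with the least *SNAP25* (879 CPM), is also the lowest control for both motors.

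The proportions of the heavy chains of conventional kinesin are described here per animal and per library. Averaged per animal, *KIF5B* made up 17.4 ± 1.80% of the summed KIF5 RPKM in control ganglia (15.8% to 19.96%, n = 4) and 23.5 ± 3.36% in treated ganglia (20.1% to 29.4%, n = 6). Each control value averages 2 libraries, while 4 of the 6 treated animals gave 1 ganglion library. Library by library the groups overlapped, with a cervical control at 22.8% and treated libraries from 19.9% in lumbar and 22.1% in cervical ganglia. The share of *KIF5A* was 51.8 ± 3.28% in control and 47.9 ± 1.89% in treated ganglia, and that of *KIF5C* 30.8 ± 1.95% and 28.6 ± 2.25%. In cord the share of *KIF5B* was 37.3 ± 15.8% in control and 36.6 ± 11.1% in treated animals (n = 4 each), with wide overlap. These shares are given as a description of the members, with no test.

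**Figure D5:**
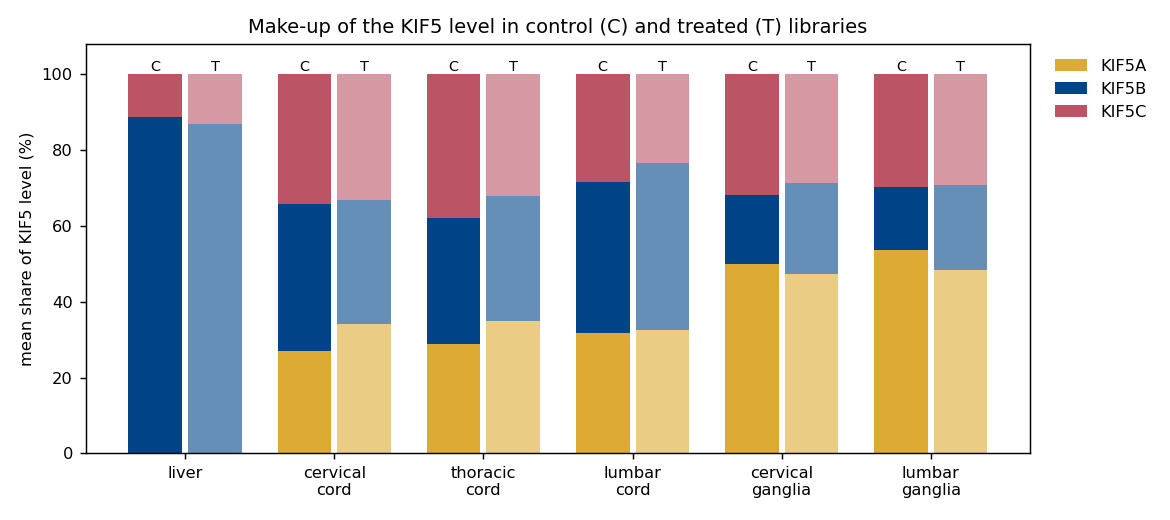
Mean share of *KIF5A*, *KIF5B* and *KIF5C* in their summed RPKM, in percent, in control (C, full colour) and treated (T, pale) libraries of each tissue, 4 libraries per bar. *KIF5B* takes 88.5% in control liver, and in ganglia its share is 18.4% and 16.4% in controls against 23.9% and 22.4% in treated libraries.

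In the spinal cord no motor gene passed the test in any region, although all 9 estimates were negative in each region (as were 49.5%, 50.0% and 51.2% of all genes in cervical, thoracic and lumbar cord). No gene of the table passed either (0% of 14235, 14032 and 14361 genes in cervical, thoracic and lumbar cord, edgeR), while at an unadjusted p under 0.05 there were 1, 1 and 0 members, against 9.53%, 2.33% and 1.74% of genes. DESeq2 called 1 member, in thoracic cord, where its count over all genes is not given here, and limma voom 0. Medians over the members were -0.39, -0.63 and -0.54, against 0.00, -0.00 and -0.01 over all genes. The members' medians were -0.65 without cervical control 1, -0.46 without the 3 thoracic libraries over 30% mitochondrial counts and -0.76 without lumbar control 1 and treated 1, with 0 members called each time. In cervical and thoracic cord 1 member each was without overlap and lower, and in lumbar cord 0 were, against 0.884% of all genes. *KIF5C* stood at 330, 343, 432 and 456 CPM in control thoracic cord and at 165, 183, 227 and 244 CPM in treated thoracic cord, without overlap, against 1.17% of all genes. Its log2 change there was -0.93 ± 0.21 (edgeR, unadjusted p = 0.00181, adjusted p = 0.981; DESeq2, adjusted p = 0.0144), and -0.80 without the 3 libraries over 30% mitochondrial counts.

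*KIF5B* stood at 600, 603, 617 and 659 CPM in control cervical cord and at 248, 415, 483 and 498 CPM in treated cervical cord. These groups did not overlap either, as for 2.91% of all genes, and the log2 change was -0.62 ± 0.20 (edgeR, unadjusted p = 0.0148, adjusted p = 0.505), -0.65 without control 1, or -0.44 without treated 4, whose mitochondrial share was 25.7%. Without control 1 the estimate of *KIF5A* in cervical cord moved from -0.15 ± 0.52 to -0.62 ± 0.25 (edgeR, adjusted p = 0.509). In lumbar cord no member reached an unadjusted p under 0.05 (1.02% of all genes did so as lower). There *KIF5A* stood at 23.2 CPM in control 1 and 32.3 CPM in treated 1, the libraries with almost no *MOG*, against 468 to 1150 CPM in the other 6. The lumbar estimates of *KIF5A*, *KIF5C* and *DYNC1I1* were -0.75 ± 1.04, -0.95 ± 0.80 and -0.997 ± 1.07 with these libraries, and -0.78 ± 0.21, -1.03 ± 0.30 and -0.98 ± 0.19 without them (edgeR, adjusted p = 0.694 for each).

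With the 3 regions summed per animal, *KIF5C* gave -0.76 ± 0.31 (edgeR, unadjusted p = 0.0407, adjusted p = 0.858) and *KIF5B* -0.50 ± 0.23 (adjusted p = 0.858). *KIF5B* stood at 467, 469, 521 and 547 CPM in controls and 206, 391, 396 and 443 CPM in treated animals, without overlap (1.43% of all genes). In the summed cord 1 member and 1.66% of all genes were lower at an unadjusted p under 0.05, and 0 of 15002 genes passed (0%). Treated animal 4 held the lowest level of 6 of 9 members there, and without it the estimate of *KIF5B* was -0.32 and that of *KIF1B* 0.01. Fold changes in cord also ran with gene length: the median over genes with models under 2000 bases was 0.18 and over 8000 bases -0.18 in the summed cord, and between 6000 and 8000 bases, where 5 members lie, -0.14, with 73.5% of those genes negative. The medians under 2000 and over 8000 bases were 0.25 and -0.01 in cervical ganglia, and 0.03 and 0.13 in lumbar ganglia. The part of length in these estimates was not tested. The neuron marker score in cord differed by 0.08 (exact permutation p = 0.886), from 0.69 in cervical and 0.02 in thoracic to -0.45 in lumbar cord (exact permutation p = 0.657, 0.971 and 0.514). All 6 Schwann cell markers had negative fold changes in the summed cord (median -0.59) and in cervical cord (median -2.44), with 0 called. The score of 7 endothelial and pericyte markers differed by -0.65 in cervical cord (exact permutation p = 0.0286), the smallest p that 4 against 4 libraries allow. That score differed by -0.34 in thoracic and -0.61 in lumbar cord (exact permutation p = 0.371 and 0.314, none adjusted for the number of lists and tissues). The part of these cells in the motor values of cord was not tested.

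The test of region differences within cord called 0 members and 0 of 14748 genes (0%, limma; 0.746% and 0 members at an unadjusted p under 0.05). The ganglion response differed from the cord response past the threshold for none of the members (limma over all 48 libraries, 0.308% of 15240 genes called; 1 member at an unadjusted p under 0.05, against 9.80% of genes). *KIF21A* gave the largest contrast in relation to its error, -0.59 ± 0.26 (unadjusted p = 0.0281, limma adjusted p = 0.427), and -0.32 ± 0.20 without the 7 libraries that stand apart. For *KIF5B* the contrast was 0.29 ± 0.21 (limma, adjusted p = 0.703), with an interval of -0.13 to 0.71, and it passed only with quality weights per library (0.35, adjusted p = 0.0498). The control animals are the same in both tissues.

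In liver, control levels of all 9 members were lower than in control ganglia, and no member tested was changed past the threshold. Of the 9 members 6 had counts enough to test, and 0% of 12609 genes passed in edgeR, while 1 member and 8.32% of all genes had an unadjusted p under 0.05. DESeq2 and limma voom called 0 members there. The member with an unadjusted p under 0.05 was *KIF1B*, at 14.8, 16.5, 17.6 and 18.1 CPM in controls and 18.02, 22.4, 25.1 and 25.2 CPM in treated livers. The groups touched through treated 4, and the log2 change was 0.44 ± 0.12 (edgeR, unadjusted p = 0.00594, adjusted p = 0.382). *KIF21A*, lower in treated ganglia, stood at 35.3 to 45.3 CPM in control and 40.5 to 52.2 CPM in treated livers (0.22 ± 0.11, edgeR adjusted p = 0.669). *DYNC1H1* stood at 89.3 to 116 and 89.0 to 119 CPM (0.02 ± 0.14, edgeR adjusted p = 0.985), and *KIF5B* at 75.1 to 107.9 and 90.9 to 112 CPM (0.10 ± 0.13, adjusted p = 0.890).

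*KIF5C* varied between livers more than any treatment difference, with 1.57, 4.69, 6.55 and 62.5 CPM in controls and from 1.37 to 40.3 CPM in treated animals (0.57 ± 1.22, edgeR adjusted p = 0.938). *KIF3A* ran from 1.27 to 2.65 and from 1.56 to 2.29 CPM (-0.13 ± 0.26, edgeR adjusted p = 0.934). The contrast of ganglion and liver responses called 0.0328% of all genes and none of the members (limma; 2 members and 6.16% of genes at an unadjusted p under 0.05). *KIF21A* gave -1.19 ± 0.34 (limma, unadjusted p = 0.00123, adjusted p = 0.233) and *DYNC1H1* -0.66 ± 0.25 (unadjusted p = 0.0105, adjusted p = 0.487). Both passed with quality weights per library (limma, adjusted p = 0.00136 and 0.0179).

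Motors do not work alone, and 99 further genes of the pathway were examined beside them. Their lists were chosen with earlier results of these data known, so counts set beside all-gene shares are a description only. In both ganglia together 5 of these 99 were lower and 0 were higher, with 69 negative fold changes and a median of -0.19. Over all genes of that fit 0.956% were lower, 0.0206% higher and 43.3% negative. *KIF3C*, a kinesin-2 motor enriched in neurons, ran from 524 to 1058 CPM in control and from 329 to 524 CPM in treated ganglia, with a log2 change of -1.05 ± 0.20 (limma, adjusted p = 0.0249). *DYNLT3*, a dynein light chain, ran from 215 to 407 and from 119 to 228 CPM (-0.95 ± 0.15, limma adjusted p = 0.0100). *CLSTN1*, calsyntenin-1, which links kinesin light chains to vesicles, ran from 287 to 470 and from 96.9 to 228 CPM (-1.20 ± 0.25, limma adjusted p = 0.0346). *HTT*, huntingtin, a scaffold for both motors, ran from 109 to 161 and from 55.4 to 84.4 CPM (-0.84 ± 0.15, limma adjusted p = 0.0161). *KIF3C*, *CLSTN1* and *HTT* did not overlap between groups and were lower, as were 1.24% of all genes, while *DYNLT3* had 7 of 8 treated libraries below all controls.

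By class, the ganglia together called 1 of 15 other transport kinesins, 1 of 7 other dynein subunits and 3 of 21 kinesin adaptors and cargo links. None was called among 3 kinesin light chains, 13 mitotic kinesins, 11 other dynactin subunits, 14 dynein regulators and adaptors and 15 ciliary dynein genes. Among the dynactin subunits 0 of 11 passed and 10 were negative (43.3% of all genes), and those with the smallest p were *CAPZA2*, which caps the actin-like filament (-0.38 ± 0.10, limma adjusted p = 0.0941), and *DCTN4* (-0.49 ± 0.13, 0.0965). *PAFAH1B1*, the LIS1 regulator of dynein, gave -0.69 ± 0.16 (limma, adjusted p = 0.0612), its partner *NDEL1* -0.56 ± 0.16 (0.118), and *KIFAP3*, the cargo subunit of kinesin-2, -0.63 ± 0.15 (0.0537). *DYNC1LI2*, a dynein light intermediate chain, gave -0.56 ± 0.16 (limma, adjusted p = 0.117), and the kinesin light chains *KLC2* and *KLC4* -0.83 ± 0.27 (0.197) and -0.12 ± 0.14 (0.789). The ciliary genes, which drive beating cilia and not axonal transport, were positive for 10 of 15. Of those with the smallest p in their class, *DNAH9*, *DNAH3*, *KIF2C* and *KIF14* gave -0.44, -0.77, -0.76 and -0.88, at treated and control means of at most 10.8 CPM and limma adjusted p of 0.512 to 0.669.

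In lumbar ganglia alone, 12 of 98 tested pathway genes were lower and 0 were higher in treated animals (edgeR), against 3.65% and 0.638% of all genes. The same limit on the choice of the lists holds for these counts. *CLSTN1* gave -1.18 ± 0.14 (adjusted p = 0.0154), *MAPK8IP3* -1.01 ± 0.14 (0.0160), *KLC2* -1.02 ± 0.14 (0.0160), *KIF3C* -1.06 ± 0.15 (0.0160) and *MAPK8IP1* -0.86 ± 0.13 (0.0172). *MAPK8IP1*, *MAPK8IP2* and *MAPK8IP3* encode JIP scaffolds that join kinesin-1 to its cargo, and *MAPK8IP2* gave -0.89 ± 0.19 (edgeR, adjusted p = 0.0404). The other 6 lower genes were *DYNLT3*, *NDEL1*, *HTT*, *ACTR1B*, *KIFAP3* and *RAB11FIP3*, with log2 changes of -0.50 to -0.90. In cervical ganglia, the cord regions, the summed cord and liver 0 of 88 to 99 tested pathway genes passed (edgeR). At an unadjusted p under 0.05, 17 were lower in cervical ganglia, against 5.07% of all genes, and 5 in the summed cord, against 1.66%.

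The levels of the members were correlated across libraries. Over the 16 ganglion libraries, the 36 pairs of members had Pearson correlations of log2 CPM from 0.52 to 0.97 (median 0.83), and over all 48 libraries from 0.33 to 0.99 (median 0.78). These points share libraries, animals, treatment and, over all 48, tissue. The genes whose log2 CPM followed the mean of the members most closely over 48 libraries were *CKAP5* (r = 0.98), *RALGAPA1* (0.98), *DST* (0.98), *ATP9A* (0.97) and *CAMSAP2* (0.97). Over the 16 ganglion libraries *SYNJ1* (0.99), *AARS* (0.99) and *ATP6V1B2* (0.98) were closest to *KIF21A*, and *PSMD1* (0.98), *CAMK2G* (0.97) and *HSPA12A* (0.97) to *DYNC1H1*.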

How the data were processed

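Messenger RNA of 48 libraries was sequenced as read pairs from TruSeq stranded kits, per the labels' protocols. The authors deposited raw read counts for each gene, obtained from featureCounts 1.4.6-p1 and Ensembl release 94 of the Macaca_fascicularis 5.0 build, per the file headers. STAR 2.5.3a is named in the submitters' processing notes. No option for pairs or for strand appears in that counting command, so both mates add to a count and reads of overlapping genes on opposite strands were not separated.

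Groups and animals were taken from the labels. The replicates are different animals. Single tissues and cord counts summed per animal were tested with the robust quasi-likelihood method of edgeR 4.0.16 under R 4.3.3, adjusting for sex, after filterByExpr on the groups and TMM scaling. The 16 ganglion libraries, interactions and comparisons between tissues were fitted in limma 3.58.1 voom with animal as a random block (statmod 1.5.0). Tests are two-sided and adjusted by Benjamini-Hochberg over all genes of a fit, with a threshold of 0.05. Fold changes are log2 values ± SE. RPKM was computed from TMM-scaled counts and the gene lengths in the deposited table. DESeq2 1.42.0, other scalings, filters, blocks and left-out libraries served as alternatives. Fits were also run on simulated data. No outcome of those runs is given here, so no conclusion about the calls is drawn from them.

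The 10 listed genes and the pathway and marker lists were chosen with earlier results of these data known. Named pathway genes are those past the threshold, at most 3 per list and fit, and the 2 with the smallest p of each list in the ganglia. Genes most alike were ranked by Pearson correlation of log2 CPM (prior count 2, mean of at least 1 CPM). *ACTR1B*, *KIFAP3*, *MAPK8IP2*, *HTT* and the other genes called in lumbar ganglia beyond that limit were named after their values were seen. In lumbar cord, libraries with the same number deviated together (r = 0.92, 0.19, 0.79 and 0.51), although control and treated animals differ, and the numbers there were treated as a block in an alternative. The same number also means the same sex in both arms, and sex was not taken out of these values. The pair at 0.92 holds the 2 libraries with almost no *MOG*. Counting precision is set by the totals per library, and intervals of fits cover the spread between animals. Some genes counted in the lists are not reported here by name.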

Additional observations from a re-analysis of the deposited data

Results flagged for a closer look

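In 4 of 120 groups of 4 values, 1 value lay far from the other 3 for a motor gene (Dixon's test at the 95% level), and chance flags about 1 group in 20. The groups include the cord counts summed per animal, which reuse the cord libraries examined singly. Cervical ganglion treated 4 held 244.9 CPM of *KIF21A* in the fit of cervical ganglia alone, against 476 to 487 CPM in the other 3, and its mitochondrial share was 23.01%. Cervical ganglion control 4 held 902.1 CPM of *KIF5C*, against 1149 to 1196 CPM in the other 3 controls. In liver, control 2 held 62.5 CPM of *KIF5C*, against 1.57 to 6.55 CPM, and treated 1 held 111.9 CPM of *KIF5B*, against 90.9 to 94.4 CPM. Their causes were not tested.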

How the results depend on the processing

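Of the single-gene values recomputed under an alternative, 1790 kept their direction and their side of the threshold, 28 crossed below it, 28 crossed above it and 77 turned direction, all of these 77 at values that had not been called. In the ganglia together (2 members and 142 genes called), 0 members passed with edgeR on counts summed per animal (13 genes), 6 with limma and 6 with edgeR when the animal was not modelled (1015 and 978 genes), and 0 to 5 when animals were left out in turn (3 to 967 genes). In lumbar ganglia (2 members and 612 genes), DESeq2 called 5 members (1738 genes), a fit with no sex term 4, a fit of all 48 libraries 0 (89 genes), and leaving out libraries in turn 0 to 4 (18 to 670 genes). The gene count of the fit with no sex term is not given here. DESeq2 called 3 members in cervical ganglia and 1 in thoracic cord, where edgeR called no member and 0% of all genes. The gene count of DESeq2 in cervical ganglia is given above with those members, and that in thoracic cord is not given here. With quality weights per library, 1 member passed in the contrast of ganglia and cord and 2 in that of ganglia and liver (2048 and 451 genes, against 47 and 5). The neighbour steps past the threshold ran from 10 (without control 2) to 17 when animals were left out, against 16. Marker scores with an exact p under 0.05 numbered 4 with TMM scaling and 9 from total counts. These counts run over every list in each tissue, in the ganglia and in the cord, with no adjustment for the number of scores.

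The numbers shared by control and treated samples do not name the same animal, and a control library deviated most like its own number in 4 of 4 pairs in liver, 3 in thoracic, 2 in cervical and 2 in lumbar cord, 0 in cervical and 1 in lumbar ganglia. Libraries of the same number also share sex, which was not taken out of these pairs. With the replicate number as a block, 1 member passed in the ganglia together (52 genes, *DYNC1H1* at adjusted p = 0.0619) and 1 in lumbar ganglia (206 genes, *KIF1A* at adjusted p = 0.0522). Under the block *KIF1B* turned to 0.0074 in the comparison of ganglion regions and to 0.034 in that of ganglia and cord, and no other count of members changed.

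Other turns of direction, all in values not called, were *KIF5C* in liver with no sex term (-0.067), *KIF3A* in liver in the fit of 48 libraries (0.0043), and *KIF5A* in cervical cord with limma voom (0.044) and in the fit of 48 libraries (0.014). Between ganglion regions, *KIF1B* turned to 0.047 with no sex term, and *KIF1A*, *KIF1B* and *KIF3A* to 0.19, 0.35 and 0.32 without the animal block. Between ganglia and cord, *KIF1B* and *KIF5C* turned to 0.081 and 0.017 without the animal block, *KIF1B*, *KIF3A* and *KIF5C* to 0.34, 0.23 and 0.27 with quality weights, and *KIF1B*, *KIF3A*, *KIF5C* and *DYNC1I1* to 0.28, 0.36, 0.36 and 0.013 without the 7 libraries that stand apart, a set chosen after seeing the data. The cause was not tested.

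Leaving out libraries or animals in turn gave these ranges where a direction turned. In liver, *KIF3A* ran from -0.31 to 0.059, *KIF5B* from -0.014 to 0.19, *DYNC1H1* from -0.073 to 0.095 and *KIF5C* from -0.015 to 1.99. In cervical cord, *KIF5A* ran from -0.62 to 0.14 and *DYNC1I1* from -0.66 to 0.055, and in thoracic cord *KIF1B* from -1.15 to 0.13 and *KIF3A* from -1.04 to 0.0040. In lumbar cord, *KIF1B* ran from -0.87 to 0.37, *KIF3A* from -0.78 to 0.018, *KIF5A* from -1.77 to 0.40 and *DYNC1I1* from -2.18 to 0.088. *KIF1B* ran from -0.86 to 0.021 in cervical ganglia and from -0.64 to 0.012 in the summed cord. Between ganglion regions, *KIF1A* ran from -0.34 to 0.52, *KIF1B* from -0.25 to 0.35, *KIF3A* from -0.38 to 0.32, *KIF5A* from -0.048 to 0.21, *KIF5B* from -0.012 to 0.21, *DYNC1H1* from -0.059 to 0.094 and *DYNC1I1* from -0.32 to 0.055. Between ganglia and cord, *KIF1B* ran from -0.43 to 0.20, *KIF3A* from -0.45 to 0.039, *KIF5A* from -0.92 to 0.20, *KIF5C* from -0.29 to 0.35 and *DYNC1I1* from -0.79 to 0.27. Between ganglia and liver, *KIF5A* ran from -1.26 to 0.82 and *DYNC1I1* from -0.11 to 1.35, which the liver fit had left out for low counts.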
